A study of Mus musculus with 20 samples.

Results

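Oligodendrocyte lineage transcription factors are the DNA-binding proteins that set up and carry forward the cells that make myelin. The 10 factors described here were Olig1, Olig2, Sox10, Sox8, Nkx2-2, Myrf, Nkx6-2, Zfp488, St18 and Tcf7l2. They were chosen by name, and each was found once among the 29200 genes of the count table. RNA was measured by RNA-seq of poly(A) RNA from whole cerebellum of C57BL6/N mice, with 5 mice in each of 4 groups. A figure legend of the study names males only for this measurement. WT/WT mice at 2 and 12 months of age carried wild-type alleles, and 304Q/304Q mice at 2 and 12 months carried an expanded, interrupted CAACAG repeat of 304 glutamine codons in both copies of the murine Atxn3 gene. 304Q/304Q is a knock-in model of spinocerebellar ataxia type 3 in which the gene keeps its own promoter, and the mice came from 1 founder line. The labels of the WT/WT samples name ataxin-2 as the wild-type gene, while the methods place the repeat in Atxn3.

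Olig2 and its neighbour Olig1 are basic helix-loop-helix factors, and with the HMG-box factors Sox10 and Sox8 and the homeobox factor Nkx2-2 they are present from the precursor cell onwards. These 5 are named lineage-wide here. Myrf, a membrane-bound factor that is cut and moves to the nucleus, is needed for myelin gene expression in mature cells. Nkx6-2, the zinc-finger proteins Zfp488 and St18, and Tcf7l2, the nuclear partner of β-catenin in Wnt signalling, act around the step from precursor to myelinating cell, and with Myrf these 5 are named late-stage. Some of these genes are also read outside the lineage, for example Sox8 in Bergmann glia and Tcf7l2 in astrocytes, so that their level in whole cerebellum is not a count of one cell type.

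The libraries held 11385380 to 27636687 counts. Differences are given as log2 fold changes of 304Q/304Q over WT/WT, or of 12 over 2 months. A gene was called where its p from edgeR's quasi-likelihood test, adjusted by Benjamini-Hochberg over all genes tested, was at most 0.05. In this bulk tissue fewer cells of a type and less RNA per cell cannot be told apart. Precursor cell markers were present in every group, with a summed level between 420.4 and 619.6 CPM (counts scaled to the total of the library) in single mice, and so were markers of myelinating cells, between 3351 and 6343 CPM. Choroid plexus markers ranged from 10.21 to 2093 CPM between single libraries. The part of that tissue in the results was not tested.

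In the GRCm38 build Olig2 (16:91225457-91228677, plus strand) and Olig1 (16:91269772-91271933, plus strand) are neighbours. Sox10 is at 15:79154908-79165240, Sox8 at 17:25565892-25570686 and Nkx2-2 at 2:147177546-147194243, all on the minus strand. Of the late-stage factors, Myrf (19:10208272-10240748), Nkx6-2 (7:139579376-139582797) and Zfp488 (14:33967070-33978764) are on the minus strand, and St18 (1:6487231-6860940) and Tcf7l2 (19:55741820-55933654) on the plus strand. Each value counts reads over the exons of the gene, untranslated parts included. Exons of 4 of the factors share bases with another annotated gene, namely Olig1 with Gm15966 (157 bases), Sox8 with 2810468N07Rik (329 bases), Nkx2-2 with Nkx2-2os (278 bases) and Nkx6-2 with Inpp5a (246 bases). The strand setting of the counting was not given in the sources used here, so reads over these bases cannot be assigned with certainty. Zfp488, Myrf, St18, Olig2, Sox10 and Tcf7l2 share no exon base with another gene.

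The sequence of 250 bases before the gene start was taken from RefSeq (GRCm38.p6) and is shown for Zfp488, the factor with the widest difference between genotypes. It is also shown for 2 genes that these factors are known to drive in myelinating cells, Mobp and Cnp. Mobp had the largest fall of that list at 12 months, and Cnp was not called. Capitals mark the letters CTGGCAC or CTGGTAC, which MYRF binds, ACAAAG or ACAATG, which SOX proteins bind, CAGCTG or CAGATG, an E-box of the kind OLIG proteins bind, CTTTGA, which TCF proteins bind, and CACTTGA, which NKX2-2 binds, on either strand. CTTTGA and the SOX letters can overlap.
Zfp488 (chr14:33978765-33979014, minus strand): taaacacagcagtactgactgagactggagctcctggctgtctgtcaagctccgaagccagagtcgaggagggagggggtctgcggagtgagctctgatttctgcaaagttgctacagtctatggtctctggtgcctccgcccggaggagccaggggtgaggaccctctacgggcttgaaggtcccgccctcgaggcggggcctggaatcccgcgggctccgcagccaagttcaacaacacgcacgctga
Mobp (chr9:120149492-120149741, plus strand): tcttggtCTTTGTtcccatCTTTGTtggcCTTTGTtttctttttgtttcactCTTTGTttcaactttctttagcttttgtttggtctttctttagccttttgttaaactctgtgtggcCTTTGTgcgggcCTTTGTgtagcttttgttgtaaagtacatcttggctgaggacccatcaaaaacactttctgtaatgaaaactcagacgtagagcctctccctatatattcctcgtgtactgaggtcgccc
Cnp (chr11:100574689-100574938, plus strand): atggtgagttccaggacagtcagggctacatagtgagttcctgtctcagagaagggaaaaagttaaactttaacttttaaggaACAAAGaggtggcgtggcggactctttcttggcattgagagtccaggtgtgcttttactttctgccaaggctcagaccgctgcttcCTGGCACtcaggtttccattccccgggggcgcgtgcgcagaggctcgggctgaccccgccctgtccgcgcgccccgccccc
The Zfp488 window held none of these letters. Of the 32851 promoters of this length in the table, 5.93% held the MYRF letters, 25.2% the SOX letters, 25.5% the E-box, 13.8% the TCF letters and 2.68% the NKX2-2 letters. Mobp held 6 SOX matches, all on the other strand, and was the only promoter of the 32851 with at least 6. The limit of 6 is the count of Mobp itself, a gene picked for its fall, so this is a description only. A link between these matches and the fall was not tested. Cnp held 1 MYRF and 1 SOX match. Promoters were found for 6 of the 10 factors and 11 of the 16 target genes. Entries of factors and targets on 1 chromosome were left out beforehand, but not from the 32851. The promoters of Olig1, Sox10, Myrf and St18 were missing among the factors, and those of 5 targets, Mbp among them. The MYRF letters were in none of the promoters found for the factors, and among the targets in those of Cnp, Mag and Mog.

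Levels are compared between genes as CPM per kilobase of exon, over all 20 mice. Olig1 had the highest level, 23.1 ± 2.85 (SD, n = 20), followed by St18 with 21.6 ± 2.93, but Olig1 lay above St18 in only 13 of the 20 mice. Sox10 followed at 15.96 ± 2.27, Sox8 at 11.7 ± 1.41 and Myrf at 8.35 ± 0.695. St18 lay above Sox10 in 18 of the 20 mice, and Sox10 above Sox8, Sox8 above Myrf and Myrf above Olig2 in 20 of 20. Below them came Olig2 at 5.12 ± 0.956, Nkx6-2 at 4.54 ± 0.915 and Nkx2-2 at 3.22 ± 0.611. Olig2 exceeded Nkx6-2 in 15 mice, which is not a clear order. Tcf7l2 (0.767 ± 0.150) and Zfp488 (0.706 ± 0.310) were the lowest, and Tcf7l2 lay above Zfp488 in 12 of 20 mice. Over the 20 mice Zfp488 had the largest coefficient of variation, 43.8%, and Myrf the smallest, 8.33%. These values include the differences between the groups.

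**Figure D1:**
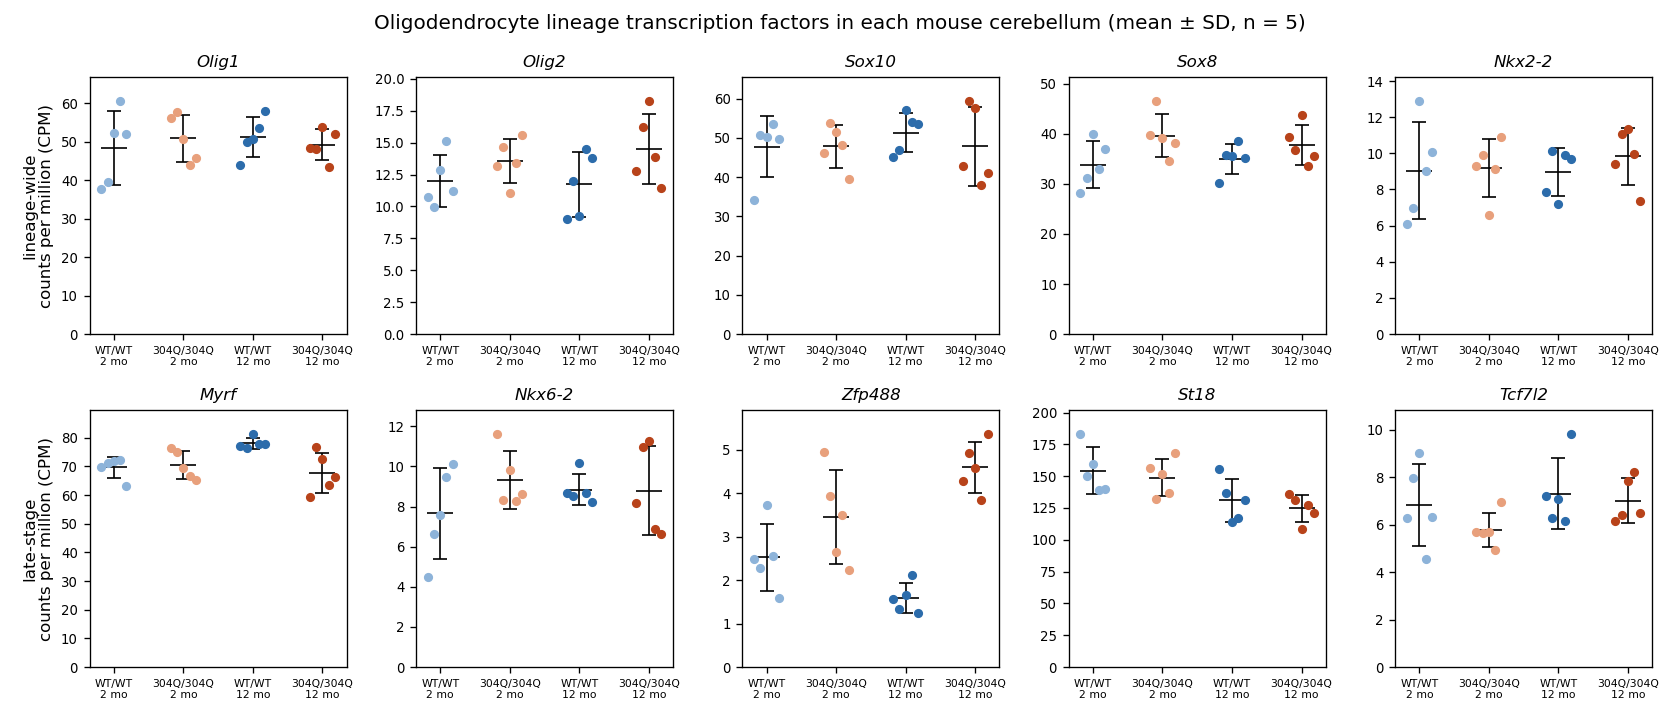
CPM of each factor (y axis, linear from 0, own scale per gene) in each mouse of the 4 groups (x axis; genotype and age in months), with the group mean and SD as bars, n = 5. Only for Zfp488 at 12 months do the genotypes separate, with all 304Q/304Q mice at or above 3.84 CPM and all WT/WT mice at or below 2.12 CPM.

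Zfp488, a zinc-finger regulator that works with Olig2 in promoting differentiation, was higher in 304Q/304Q than in WT/WT cerebella at 12 months. Its level was 1.57, 1.33, 1.66, 2.12 and 1.25 CPM in the 5 WT/WT mice of 12 months and 4.27, 4.91, 4.58, 3.84 and 5.37 CPM in the 5 304Q/304Q mice. All 304Q/304Q mice lay above all WT/WT mice, as the groups of 8.94% of all tested genes did, in either direction. At 2 months the WT/WT mice had 2.49, 2.29, 3.71, 2.54 and 1.58 CPM and the 304Q/304Q mice 4.95, 3.93, 2.64, 3.50 and 2.23 CPM, and these groups overlapped. The group means were 2.52 ± 0.770 CPM (SD, n = 5) for WT/WT and 3.45 ± 1.08 CPM for 304Q/304Q at 2 months, and 1.58 ± 0.342 and 4.59 ± 0.587 CPM at 12 months.

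The mean of Zfp488 over the 20 libraries was 44.2 counts, under the minimum of 50 counts of the main test, so it was absent from the 12153 genes tested there. It was tested with the lower minimum of edgeR's filterByExpr, which kept 15830 genes. Every library held between 16 and 137 counts of it, so it did not pass through one group alone. With this minimum the log2 fold change at 12 months was 1.53 (SE 0.248, 95% interval 1.02 to 2.04), a 2.89-fold higher level, with an adjusted p of 0.000155 (edgeR, quasi-likelihood, Benjamini-Hochberg over the 15830 genes). In that fit 9.25% of genes were called at 12 months, and 1.23% were called higher with a log2 fold change of at least 0.5. An exact two-sided permutation test of the log2 CPM over the 10 mice of 12 months gave p = 0.00794, the smallest p that 5 against 5 mice allow. The separation of the groups described above fixes this p, so it adds no further support. The call was kept in all 16 alternatives, which included DESeq2, no scaling factors, removal of the trend with GC content and each of the 10 libraries left out, with log2 fold changes from 1.47 to 1.66.

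At 2 months the log2 fold change of Zfp488 was 0.47 (95% interval -0.0194 to 0.961, adjusted p = 0.904). Between 2 and 12 months it was -0.67 in WT/WT mice (adjusted p = 0.107) and 0.40 in 304Q/304Q mice (adjusted p = 0.401). The genotype difference at 12 months exceeded that at 2 months by 1.06 on the log2 scale (95% interval 0.354 to 1.77), with an adjusted p of 0.144 by edgeR (0.00486 before adjustment), so the change of the genotype difference with age did not pass the test. The nearest gene with reads, Gdf10, which codes for a growth factor of the BMP family, lies on the other strand and fell at 12 months in 304Q/304Q mice (log2 fold change -0.66, adjusted p = 2.22e-07 in the same edgeR fit).

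Myrf was the only factor called between genotypes in the main test, and it was lower at 12 months. Its level was 77.1, 76.4, 81.5, 77.8 and 77.8 CPM in WT/WT mice of 12 months and 59.5, 76.9, 72.5, 63.5 and 66.2 CPM in 304Q/304Q mice of that age. Of the 304Q/304Q mice 1 lay above the lowest WT/WT mouse, so the groups overlapped. The log2 fold change was -0.21 (SE 0.0662, 95% interval -0.344 to -0.0703, adjusted p = 0.041, edgeR), which is smaller than 0.5. Among all 12153 genes, 12.5% were called at 12 months and 3.09% also reached a log2 fold change of 0.5 in size, and of the 9 factors tested 1 was called and 0 reached that size. The call was kept in 9 of 22 alternatives, and leaving out any of 6 of the 10 libraries of 12 months ended it. These were WT/WT replicates 3, 4 and 5 and 304Q/304Q replicates 1, 4 and 5, with adjusted p between 0.0614 and 0.118. In the filterByExpr fit used for Zfp488, Myrf gave -0.20 with an adjusted p of 0.0551 and was not called. The trend of the libraries with GC content went with genotype at 12 months. WT/WT replicate 1 was at -0.0755 log2 units per 10% of GC, the other WT/WT mice lay between 0.129 and 0.203, and the 304Q/304Q mice between -0.0714 and 0.0406. With that trend removed, the log2 fold change of Myrf, a gene with 57.6% GC, was -0.13 with an adjusted p of 0.213.

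At 2 months the level of Myrf was 69.7, 71.1, 72.0, 72.2 and 63.3 CPM in WT/WT mice and 76.5, 75.0, 69.4, 66.8 and 65.4 CPM in 304Q/304Q mice. The log2 fold change was 0.02 (95% interval -0.115 to 0.157), and the groups overlapped. In WT/WT mice the older animals all lay above the younger ones, a separation shown by 6.57% of all genes, with a log2 fold change of 0.17 that missed the threshold (adjusted p = 0.103). In 304Q/304Q mice the difference with age was -0.06 (adjusted p = 0.687). The change of the genotype difference of Myrf between the ages was -0.23 (95% interval -0.421 to -0.0349) with an adjusted p of 0.233 by edgeR (0.0226 before adjustment), beside 1.95% of genes called in that contrast.

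St18, a zinc-finger factor of the Myt family that is read while oligodendrocytes mature, was called lower in older mice when averaged over both genotypes. The WT/WT mice had 183.5, 150.4, 159.2, 139.1 and 140.1 CPM at 2 months and 155.5, 137.1, 114.0, 117.2 and 131.2 CPM at 12 months. The 304Q/304Q mice had 156.8, 131.8, 151.8, 136.4 and 168.0 CPM at 2 months and 136.2, 130.9, 108.6, 127.0 and 120.8 CPM at 12 months. The ages overlapped in both genotypes, and the log2 fold changes with age, -0.24 in WT/WT (adjusted p = 0.079) and -0.26 in 304Q/304Q (adjusted p = 0.0833), both missed the threshold. Averaged over the genotypes, a contrast added after the data were seen, the log2 fold change was -0.25 (SE 0.0623, 95% interval -0.376 to -0.119) with an adjusted p of 0.00835 by edgeR, where 14.5% of all genes were called. It was the only one of the 9 tested factors called in that contrast. With the GC trend removed the averaged value for St18 was -0.18 (adjusted p = 0.0108). Between genotypes St18 gave -0.05 at 2 months and -0.07 at 12 months, with intervals of -0.232 to 0.13 and -0.253 to 0.112.

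Nkx6-2, a homeobox factor of late differentiation, ranged from 4.503 to 10.1 CPM in WT/WT and from 8.29 to 11.6 CPM in 304Q/304Q mice at 2 months, and from 8.20 to 10.2 and from 6.64 to 11.3 CPM at 12 months. The log2 fold change between genotypes was 0.29 at 2 months (95% interval -0.0927 to 0.665) and -0.01 at 12 months (95% interval -0.395 to 0.368), so that a difference of 0.5 was not excluded by the interval at 2 months. Tcf7l2 gave -0.24 at 2 months (95% interval -0.589 to 0.118) and -0.06 at 12 months (95% interval -0.411 to 0.294), from levels between 4.56 and 9.84 CPM. For both genes the genotype groups overlapped at each age.

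None of the 5 lineage-wide factors was called in any contrast of the main test. Olig2, which specifies the lineage, was closest at 12 months. It had 9.01, 12.0, 9.25, 14.5 and 13.8 CPM in WT/WT and 12.8, 16.2, 18.3, 13.9 and 11.44 CPM in 304Q/304Q mice. These groups overlapped, and the log2 fold change of 0.30 (SE 0.153, 95% interval -0.0141 to 0.62) had an adjusted p of 0.205. At 2 months it was 0.18 (adjusted p = 0.933), and averaged over the ages 0.24 (95% interval 0.0192 to 0.466, adjusted p = 0.195, with 6.98% of all genes called).

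Sox8, which overlaps Sox10 in function, had 28.2, 31.1, 39.9, 32.9 and 37.1 CPM in WT/WT and 39.8, 46.7, 39.2, 34.6 and 38.1 CPM in 304Q/304Q mice at 2 months. The highest of these 10 was a 304Q/304Q and the lowest a WT/WT mouse, and the groups overlapped. The log2 fold change was 0.23 (95% interval 0.0312 to 0.428), with an adjusted p of 0.86 by edgeR (0.0251 before adjustment). Sox8 was the only one of the 9 factors with an unadjusted p under 0.05 at that age, beside 674 of all 12153 genes. At 12 months the log2 fold change was 0.11 (adjusted p = 0.505). Averaged over the ages the value for Sox8 was 0.17 with an adjusted p of 0.147.

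Olig1, Sox10 and Nkx2-2 gave log2 fold changes between genotypes close to 0. For Olig1, which acts in maturation and repair, the mean was 48.4 ± 9.63 CPM (SD, n = 5) for WT/WT and 50.8 ± 6.14 for 304Q/304Q mice at 2 months, and 51.2 ± 5.14 and 49.1 ± 4.01 at 12 months. Its intervals ran from -0.156 to 0.297 at 2 months and from -0.29 to 0.166 at 12 months. Sox10, the factor that keeps the lineage and joins Myrf at myelin genes, had 47.7 ± 7.76 and 47.9 ± 5.47 CPM at 2 months and 51.4 ± 5.02 and 47.9 ± 10.005 CPM at 12 months, in the same order. The Sox10 interval at 12 months was -0.362 to 0.154. Nkx2-2, which helps precursors to differentiate, had 9.03 ± 2.68 and 9.17 ± 1.60 CPM at 2 months and 8.95 ± 1.32 and 9.83 ± 1.60 CPM at 12 months, with intervals of -0.339 to 0.39 and -0.236 to 0.499.

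**Figure D2:**
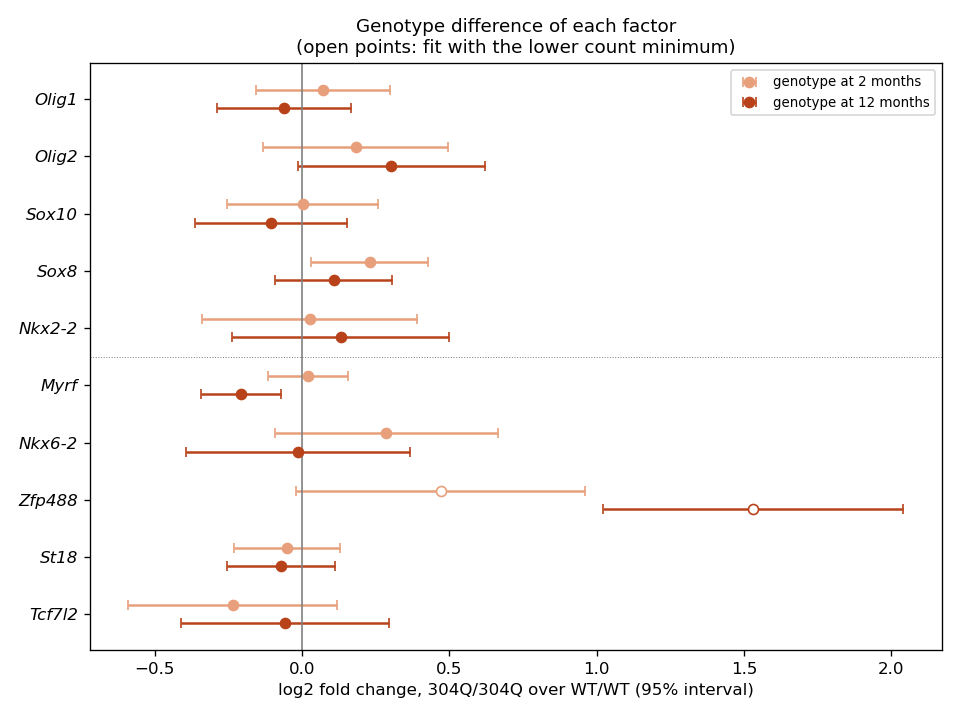
Log2 fold change of 304Q/304Q over WT/WT (x axis) for each factor (y axis) at 2 and 12 months, with 95% intervals; open points are Zfp488, tested with the lower count minimum. At 12 months the intervals of Zfp488 (1.02 to 2.04) and Myrf (-0.344 to -0.0703) do not reach 0.

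At 2 months 0 of the 9 factors tested were called, beside 0.0494% of all genes. The intervals of 7 of the 9 at 2 months and of 8 of the 9 at 12 months lay within 0.5 of 0 on the log2 scale. Between ages 0 of 9 were called in WT/WT mice, where 11.5% of genes were called, and 0 of 9 in 304Q/304Q mice, where 7.26% were called. DESeq2 on the same genes also called 0 of them in these 3 comparisons. The number with an unadjusted p under 0.05 was 1 for genotype at each age, 2 for age in WT/WT and 1 for age in 304Q/304Q. In simulated counts with these libraries, edgeR called 40 of 50 genes with a log2 fold change of 0.5 at 12 months. With 0.25 it called 5 of 50. Far fewer genes were changed there than the 1523 called in the data at 12 months, which makes the adjusted threshold stricter. How often a difference of the size seen for Myrf would be called in the data was not tested. The same holds for a difference of 0.5 in the tested factors with the fewest counts, Olig2, Nkx2-2, Nkx6-2 and Tcf7l2.

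Set side by side, the classes did not separate by genotype when their members were averaged. At 12 months 3 of the 5 lineage-wide factors had a positive log2 fold change (median 0.107), and 4 of the 4 late-stage factors in the main test a negative one (median -0.0643), beside a median of -0.00386 over all genes. Of these only Myrf was called, and Zfp488, the late-stage factor under the count minimum, was higher. The mean log2 CPM of the 5 late-stage minus that of the 5 lineage-wide factors was -0.504 ± 0.207 for WT/WT and -0.516 ± 0.139 for 304Q/304Q mice in the young groups (SD, n = 5). At 12 months it was -0.617 ± 0.183 for WT/WT and -0.47 ± 0.101 for 304Q/304Q mice, and the groups overlapped at both ages. Without Zfp488 the order at 12 months turned, with 0.198 ± 0.2 for WT/WT and 0.0332 ± 0.0847 for 304Q/304Q mice, again overlapping. No test was made of this difference.

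**Figure D3:**
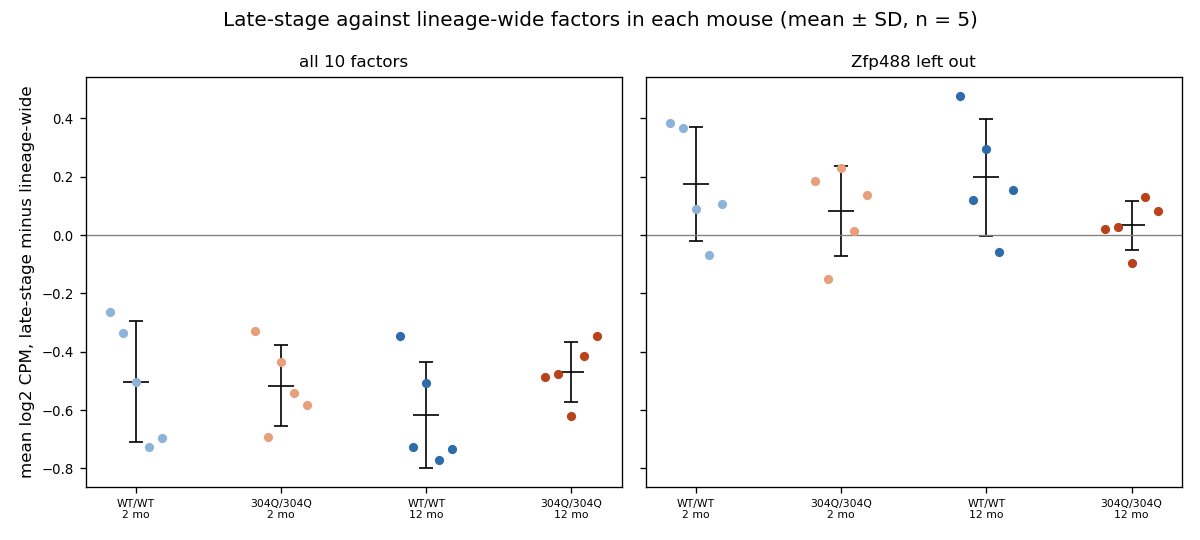
Mean log2 CPM of the late-stage factors minus that of the lineage-wide factors (y axis) in each mouse of the 4 groups (x axis), with all 10 factors on the left and without Zfp488 on the right; bars give mean and SD, n = 5. All groups overlap in both panels, and at 12 months the 304Q/304Q mean is above that of WT/WT (-0.47 against -0.617) on the left and below it (0.0332 against 0.198) on the right.

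Genes known as targets of these factors in myelinating cells are described beside the factors, with no test of the difference between the lists. At 12 months 6 of 16 targets were called lower and 0 higher in 304Q/304Q mice, where 7.3% of all genes were called lower. Of the 16, 15 had a negative value, and their median log2 fold change was -0.355, beside -0.00386 over all genes. With the GC trend removed 7 of 16 were called lower (median -0.367). Mobp, a protein of compact myelin, measured 772 ± 55.7 CPM (SD, n = 5) for WT/WT and 443 ± 52.3 CPM for 304Q/304Q mice, a log2 fold change of -0.80 (adjusted p = 1.3e-08, edgeR). Fa2h, which makes hydroxylated myelin lipids, gave -0.64, Mal, a membrane protein of myelin, -0.61, Mbp, which compacts the sheath, -0.43, and Ermn, a cytoskeletal protein of myelinating cells, -0.35. The genotype groups did not overlap for Mobp, Fa2h, Mal and Mbp, and overlapped for Ermn. Of all genes 8.94% had groups that did not overlap. At 2 months 1 of the 16 fell, namely Mal (log2 fold change -0.39, adjusted p = 0.00668, edgeR), with a median of -0.15 over the list. Mag, Cnp and Mog, whose promoters held the MYRF letters, gave -0.19, -0.13 and -0.20 at 12 months and were not called.

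With age 4 of the 16 targets fell in WT/WT mice, where 659 of all 12153 genes were called lower. Among these targets were Mal (log2 fold change -0.44), Ugt8a (-0.66), an enzyme of myelin galactolipids, and Mog (-0.46), a protein of the outer myelin surface. In 304Q/304Q mice, where 508 of all 12153 genes were called lower, 8 of the targets fell. Among the 8 were Mal, Ugt8a, Mog, Cldn11, Mag, Fa2h and Mobp, with log2 fold changes between -0.72 and -0.26. Gpr17, a receptor of cells on the way to myelination, fell from 2 to 12 months in both genotypes, with log2 fold changes of -1.22 for WT/WT (adjusted p = 4.36e-06) and -0.70 for 304Q/304Q (adjusted p = 0.00133, edgeR). Between genotypes edgeR called 0 of 7 tested genes of that stage at either age, with 0 unadjusted p under 0.05 at 2 and 4 at 12 months, Gpr17 among the 4 (log2 fold change 0.35, adjusted p = 0.107). It called 0 of 6 precursor cell markers at either age, with 1 unadjusted p under 0.05 at 2 and 0 at 12 months. Of all 12153 genes, 0.0494% were called between genotypes at 2 and 12.5% at 12 months. An unadjusted p under 0.05 was found for 674 and 3321 of them.

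Other regulators around the factors are read against the 12.5% of all genes called between genotypes at 12 months. In that contrast 3321 of the 12153 genes had an unadjusted p under 0.05. Among 16 partners and chromatin cofactors edgeR called 0 (median log2 fold change 0.0723, 2 with an unadjusted p under 0.05), and among 6 tested Wnt readouts 0 (median 0.196, 1 with an unadjusted p under 0.05). Of 10 tested precursor-stage and inhibitory regulators 1 was called, Id2, an inhibitor of basic helix-loop-helix factors, at -0.26 (adjusted p = 0.013, edgeR). Of 6 tested relatives of the factors 1 was called, and this gene, Myt1l, a neuronal relative of St18, rose by 0.28 (adjusted p = 0.00426). With age in WT/WT mice, where 11.5% of all genes were called, 2 of the 16 cofactor genes fell. These were Zeb2 and Zfp24, with log2 fold changes of -0.32 and -0.39. With age in 304Q/304Q mice, where 7.26% of all genes were called, edgeR called 0 of the 16. Of these 1 had an unadjusted p under 0.05, as had 2326 of the 12153 genes. The change of the genotype difference between the ages was called for 0 of the 16.

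Markers of some cell types were lower in 304Q/304Q mice at 12 months, beside 7.3% of all genes called lower and 12.5% called in either direction. An unadjusted p under 0.05 was found for 3321 of all 12153 genes. Of 8 markers of myelinating oligodendrocytes 3 fell between genotypes, and their summed level ranged from 5115 to 5822 CPM in WT/WT and from 3351 to 4664 CPM in 304Q/304Q mice. Of 7 astrocyte and Bergmann glia markers 4 fell (4797 to 5015 and 3878 to 4247 CPM), as did 4 of 5 Purkinje cell markers (5379 to 6119 and 4430 to 4887 CPM) and 2 of 4 tested interneuron markers (1623 to 1850 and 1301 to 1447 CPM). Each of these 4 sums was lower in every 304Q/304Q mouse than in any WT/WT mouse of 12 months. Of the 7 astrocyte and Bergmann glia markers 2 went the other way, and 0 were called higher. These were Gfap (mean 175.7 CPM in WT/WT and 200.1 CPM in 304Q/304Q mice) and Aqp4 (347.3 and 386 CPM). Of the 8 markers of myelinating oligodendrocytes 1 had a positive log2 fold change, and of the Purkinje cell and tested interneuron markers 0. Of the other cell types, 1 of 5 endothelial markers fell. By edgeR 0 of 5 granule cell markers (median log2 fold change 0.0929, 1 with an unadjusted p under 0.05), 0 of 5 microglia markers (median 0.139, 1 such p), 0 of 3 tested choroid plexus markers (median -0.274, 0 such p) and 0 of 1 tested Schwann cell marker (1 such p) were called. Their part in the values of Myrf and Zfp488 was not tested.

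**Figure D4:**
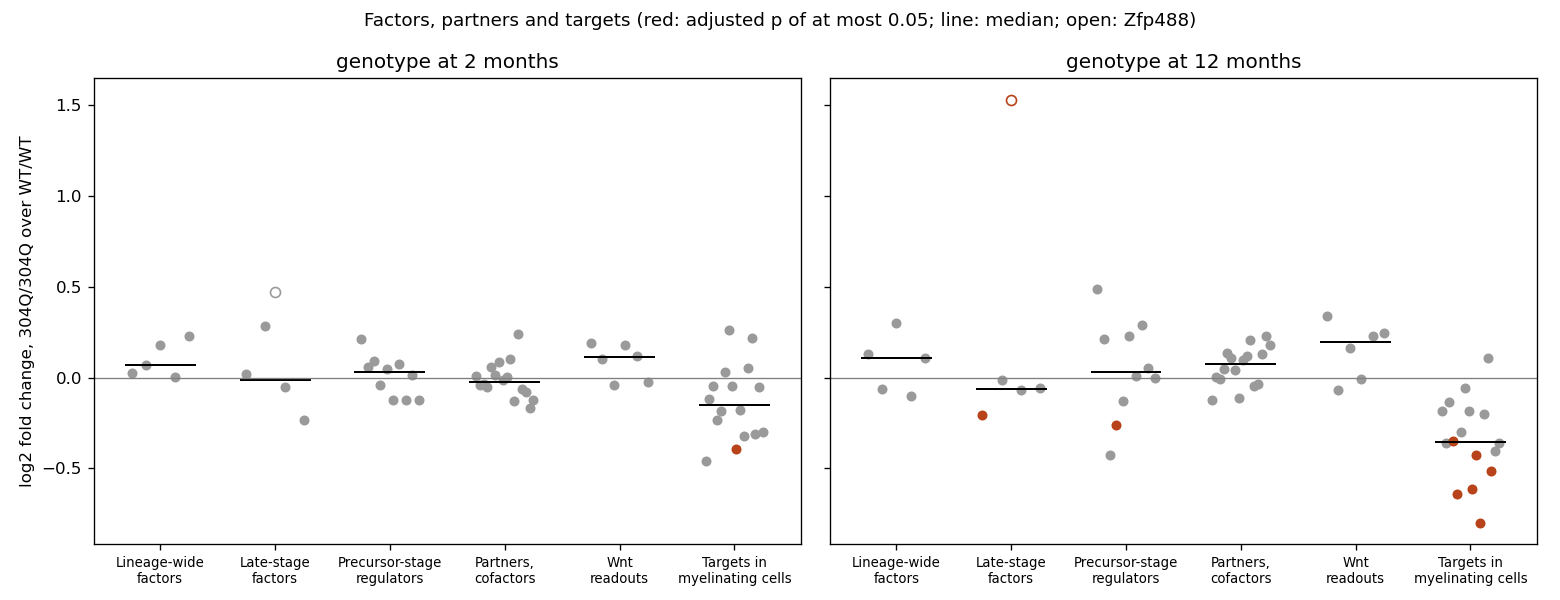
Log2 fold change of 304Q/304Q over WT/WT (y axis) for the factors and 4 gene lists (x axis) at 2 and 12 months; each point is a gene, red where the adjusted p is at most 0.05, the line is the median of the main test and the open point is Zfp488. At 12 months 6 of 16 targets are red and below 0, while of the factors Myrf is red below 0 in the main test and Zfp488 lies at 1.53 in the fit with the lower count minimum, in which Myrf was not called.

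Over the 20 mice, deviations from the group mean were compared between genes as a description. The highest Pearson r between 2 of the factors was 0.741, for Sox10 and Nkx6-2, followed by Olig2 with Nkx2-2 (0.734) and Olig1 with Sox8 (0.714). St18 ran against Sox10 (r = -0.677). Of the factors, Nkx6-2 (64.3%) and Sox10 (61.8%) have the highest GC content and St18 (41.7%) the lowest. The r between factors was not computed with the GC trend of the libraries removed. Over all genes, the gene most like Sox10 was Mag, a myelin protein gene (r = 0.901, Spearman's rho 0.838), the one most like Myrf was Lamp1 (0.805, rho 0.847), most like Zfp488 was Ndor1 (0.737, rho 0.711) and most like St18 was Usp34 (0.937, rho 0.853). Of these pairs, St18 (41.7% GC) and Usp34 (41.5%) lie close in GC content and Sox10 (61.8%) and Mag (57.6%) are both GC-rich, while Myrf (57.6%) and Lamp1 (51.6%), and Zfp488 (48.2%) and Ndor1 (55.3%), lie farther apart. With the GC trend of the libraries removed, the SD within groups went from 0.155 to 0.115 for St18, from 0.227 to 0.195 for Sox10 and from 0.0991 to 0.108 for Myrf, on the log2 scale.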

How the data were processed

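The values deposited by the authors are whole-number counts of reads per Ensembl gene in 20 mouse cerebella, not normalized. Per the study's methods, libraries from the TruSeq Stranded mRNA kit were aligned with STAR to GRCm38 and counted with Rsubread. Every column had a sample. Total counts were 11385380 to 27636687 per library. No pair of libraries of a group differed by less than sampling noise (chi-square per degree of freedom at least 4.43).

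Symbols, positions and GC content came from the GENCODE annotation of GRCm38, which matched 29150 of 29200 gene IDs. The 12153 genes whose mean reached 50 counts were tested in edgeR 4.0.16 (R 4.3.3; TMM scaling, quasi-likelihood test, 1 term for each of the 4 groups), with Benjamini-Hochberg adjustment over all genes tested. Called, rose and fell mean an adjusted p of at most 0.05. Zfp488 was tested with filterByExpr as the count minimum. CPM used TMM-scaled totals, and log2 CPM a prior count of 2. Intervals are 95% intervals of the fit. The p-values set group differences against the spread between mice, which edgeR estimates with information shared across genes.

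The factors, classes and gene lists were chosen with earlier results of these data known. From the lists, genes called in the contrast described were named, at most 8 a list (1 gene that the counts include is not reported here by name), with the genes most like 4 of the factors. The genes named for their promoters and the neighbour of Zfp488 were chosen after their values were seen. Other alternatives were DESeq2 1.42.0, surrogate variables (sva 3.50.0, 3 variables), other scaling, other count minimums, a GC correction, a replicate block and each library left out. The test was tested on simulated data. Promoters were read from a RefSeq table.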

Additional observations from a re-analysis of the deposited data

Results flagged for a closer look

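In 4 of the 40 sets of 5 values (10 factors in 4 groups), 1 mouse stood apart from the others by Dixon's test, whose statistic is the gap to the nearest mouse over the range of the group, with a 95% critical value of 0.71. Chance flags about 1 in 20 such sets. In WT/WT mice of 2 months, Sox10 was 34.1 CPM in replicate 1, with the next mouse at 49.8 CPM (statistic 0.805). In the same group Myrf was 63.3 CPM in replicate 5, with the next at 69.7 CPM (statistic 0.721). In WT/WT mice of 12 months, Nkx6-2 was 10.2 CPM in replicate 3, with the next at 8.70 CPM (statistic 0.746), and Tcf7l2 was 9.84 CPM in replicate 5, with the next at 7.21 CPM (statistic 0.711). Zfp488 was in none of these sets.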

How the results depend on the processing

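The call of Zfp488 at 12 months was kept in all 16 alternatives (adjusted p 3.17e-07 to 0.000806), of which those that combine filterByExpr with another change were chosen after seeing the data. Under the lower count minimums, filterByExpr or none, the number of factors called with a log2 fold change of at least 0.5 at 12 months went from 0 to 1, which is Zfp488. In both of these fits Myrf was not called (adjusted p = 0.0551 and 0.0967). The number called at 12 months went from 1 to 0 with total counts only, with surrogate variables in edgeR, with only the groups compared in the fit and with the GC trend removed, and ranged from 0 to 1 when single libraries were left out. Myrf had adjusted p between 0.0142 and 0.213 over 22 alternatives. The count for age in WT/WT was 0 to 1 when single libraries were left out, and 1 with the replicate block. For age in 304Q/304Q it was 1 with only the groups compared, with the replicate block, with the GC trend removed and with both. In each of these cases the factor called was St18. At 12 months between genotypes the block with the GC trend removed also called 1, but St18 (log2 fold change -0.18, adjusted p = 0.0388) in place of Myrf. The same replicate numbers in different groups correlated from -0.323 to 0.551, with 4 of 20 over 0.1, so the numbers were not taken as pairs, and the block without the GC correction left the counts between genotypes at 0 and 1. Of 1179 single-factor values under an alternative, 1066 kept direction and call, 13 lost a call, 9 gained one, 91 that were never called changed sign, and 0 called values reversed.

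The late-stage minus lineage-wide difference depended on its members. With Sox8 and Nkx2-2 left out it was -0.823, -0.816, -0.943 and -0.766 in WT/WT and 304Q/304Q mice of 2 and then 12 months. With Tcf7l2 left out it was -0.173, -0.109, -0.33 and -0.116, and with Zfp488 left out, chosen after the data were seen, 0.176, 0.0828, 0.198 and 0.0332. At these depths Zfp488 rests on 16 to 137 counts a library. For the other factors, differences of about 0.25 on the log2 scale may be missed with 5 mice a group.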
